A study of Mus musculus with 8 samples.

Results

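The 36 genes described here encode glucose and lactate transporters, the enzymes of glycolysis, the oxygen-sensing HIF pathway with genes it switches on, and enzymes of glycogen and nucleotide sugar metabolism. They were chosen by symbol, with earlier results of these data known, and all 36 were found among the 24346 gene rows of each library. RNA-seq was run on sorted stromal cells of the large intestine from 8 mice aged 12 weeks, 4 in each group. The control group (WT in the labels) had the genotype Il10ra flox/flox and has no Cre in its label. The cKO group had the genotype Pdgfra cre; Il10ra flox/flox, so that the floxed alleles were common to both groups and only the Cre driven by the fibroblast gene Pdgfra differed. Cells were sorted as alive, podoplanin-positive and negative for CD45, CD31 and EpCAM, from whole colons. The series asks how loss of the interleukin-10 receptor in fibroblasts affects type I interferon signalling and disease of the large intestine, and the comparison below asks whether sugar-metabolism and hypoxia genes differed between the 2 groups.

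Glycolysis breaks glucose down to pyruvate in a chain of enzymes that starts with uptake by facilitative transporters and phosphorylation by hexokinases, and lactate dehydrogenase then turns pyruvate into lactate for export. In the presence of oxygen, prolyl hydroxylases of the Egln family mark the HIF alpha subunits for destruction. When oxygen is low the alpha subunits persist, pair with Arnt, bind a short DNA core next to their target genes and raise the transcription of many glycolytic genes. The colon mucosa is known for a steep fall in oxygen towards the lumen, and its fibroblasts also draw on sugar pathways to build the glycosaminoglycans and glycoproteins of the matrix.

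The libraries held 15815 to 16323 genes above 0, at relative depths of 0.869 to 1.10 (WT replicate 1 set to 1), with about 1.75e+07 fragments in WT replicate 1 as read from low values. Values are FPKM, which scale fragments by transcript length and library size, so that levels of different genes can be set side by side within a library. The stromal markers Pdpn and Pdgfra were at 84.8 to 94.7 and 126 to 167 FPKM in the 8 libraries. Transcripts of cells that the sort should remove were present in every library, with Ptprc at 1.99 to 4.15, Pecam1 at 0.594 to 2.37 and Epcam at 1.27 to 34.7 FPKM. All 12 epithelial markers were detected in all 8 libraries, and their summed level was 57.3 to 127 FPKM in WT and 969, 508, 132 and 47.8 FPKM in cKO replicates 1 to 4. Il10ra (chromosome 9, 45253837 to 45269149) was at 0.842, 0.665, 0.614 and 0.403 FPKM in WT replicates 1 to 4 and at 0.439, 0.273, 0.633 and 0.636 FPKM in cKO replicates 1 to 4, with overlapping groups. Which exons are floxed is not given in the labels, and these values do not check the genotype. In such bulk samples, fewer cells of a type and less RNA per cell cannot be told apart.

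Apart from Hk2 and Pfkl, transcript levels of the glycolytic chain were close in the 2 groups, and the members with lower values in all cKO libraries were Uap1, the last enzyme of the hexosamine pathway, and Pygl, the liver-type glycogen phosphorylase. Of the 36 genes, 35 had a mean of at least 1 FPKM over the 8 libraries and were tested with limma on log2(FPKM + 1) together with all 11506 such genes. The count of members with a Benjamini-Hochberg adjusted p under 0.05 was 0, where limma called 0.00869% of all genes (1 gene, no member). At an unadjusted p under 0.05, which 5.41% of all genes reached, 3 members were lower in cKO (Uap1, Pygl and Hk2), where 3.03% of all genes were, and 1 was higher (Pfkl), where 2.37% were. Over the alternatives the lower count ran from 2 to 4 and the higher from 0 to 3, being 0 with the replicate block, with the epithelial covariate and in 5 of the 8 fits that left out a library, and 3 without cKO replicate 2. The groups did not overlap, with cKO lower, for 2 members (1.9% of all genes), and with cKO higher for 0 members (1.36% of all genes). In all, 20 of the 35 tested members had a lower mean log2 value in cKO, against 52.6% of all genes. The members were chosen with earlier results of these data known, so these shares describe the members and test nothing. The median difference (cKO minus WT) was -0.01 over the members and -0.01 over all tested genes on the log2 scale. With every library rescaled to the same summed FPKM, 13 members were lower and 22 higher, and the median over all tested genes rose to 0.025. Without cKO replicate 2 the counts were also 13 and 22, with a median over all tested genes of -0.006. For 30 of the 35 members the 95% interval of the difference lay within 0.5 log2 units on either side of 0, as it did for 10109 of the 11506 genes. No interval of a tested member reached 1 log2 unit.

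**Figure D1:**
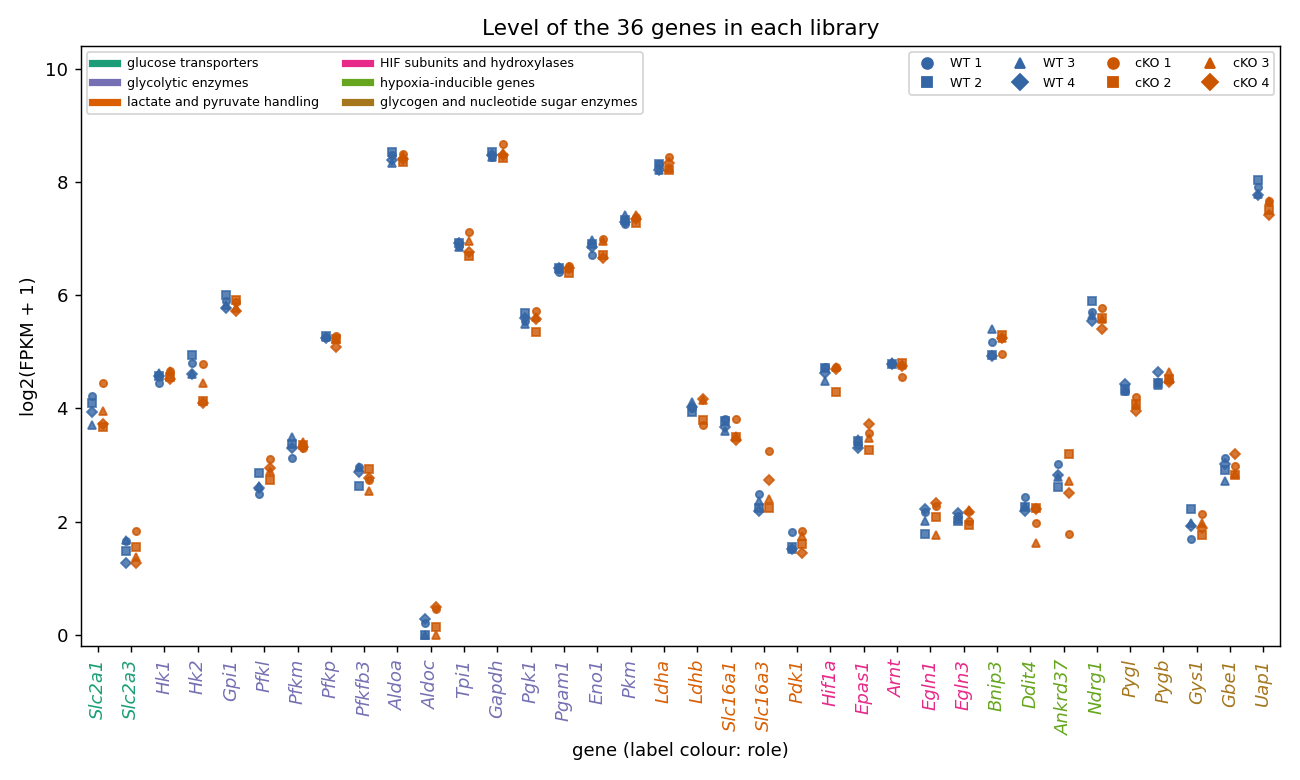
Level of each of the 36 genes in each of the 8 libraries as log2(FPKM + 1), with WT in blue and cKO in orange, 1 point per library and gene names coloured by role. Gapdh, Aldoa, Ldha and Uap1 stand highest, Aldoc lies near 0, and the Uap1 and Pygl points of cKO lie below those of WT.

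**Figure D2:**
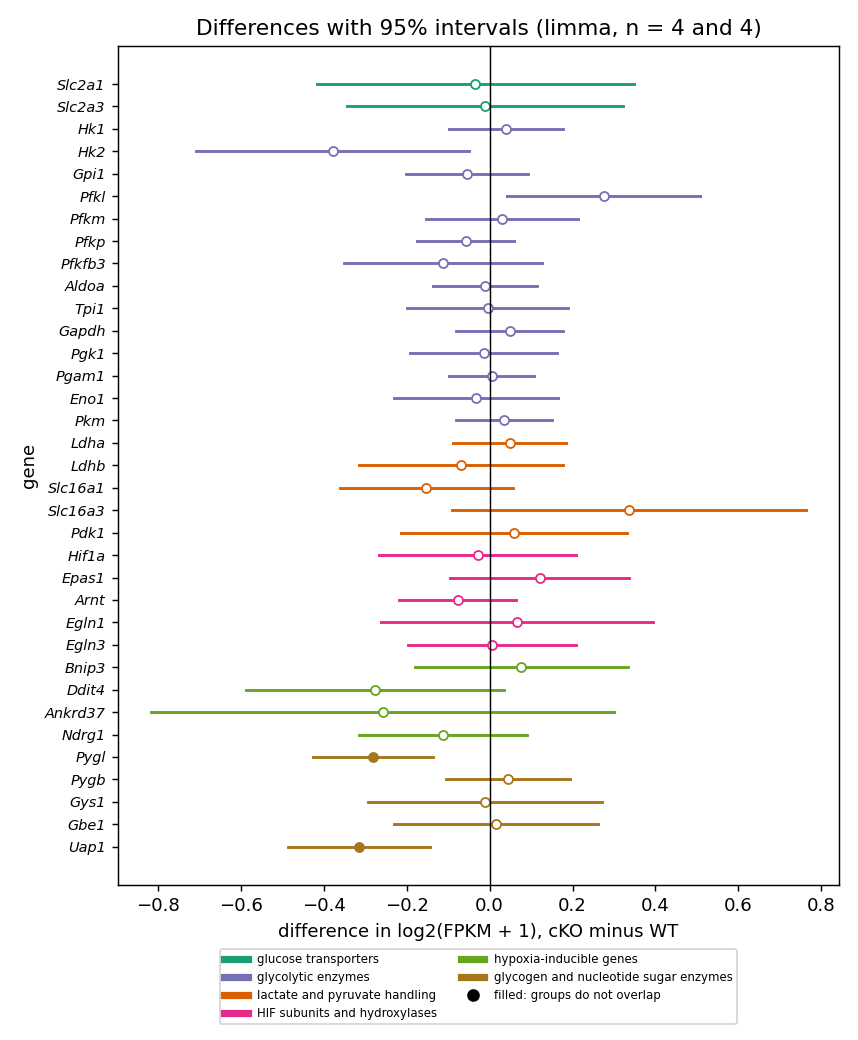
Difference in log2(FPKM + 1), cKO minus WT, for the 35 tested genes with 95% intervals from limma (n = 4 and 4). Filled points mark Uap1 and Pygl, whose groups do not overlap, and the intervals of 31 genes include 0.

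The sequence just upstream of the start was examined for the core that HIF dimers bind, taken as ACGTG or GCGTG on either strand. RefSeq windows of GRCm38.p6 were found for 33 of the 36 genes (46 windows, since some genes have several starts), and the 250 bases before each start were searched. ACGTG was present in 22 of the 46 windows (47.8%) against 16.6% of all 32851 windows, and GCGTG in 26 (56.5%) against 28.2%. Some windows of a gene overlap, as for Aldoa and Eno1, so that a site can be counted more than once. By gene, 19 of the 33 had ACGTG in a window, and the share by gene over all genes was not computed. The windows of the members were also richer in G and C, with a median of 62.2% against 52.4%, and the part of base composition in the motif counts was not tested. ACGTG also sits inside the E-box CACGTG, bound by other factors, which 6 of the member windows held (13.0%, against 6.02% of all windows). The 19 tested genes with ACGTG in a window had a median log2 difference of -0.01, from -0.38 to 0.34, and the 13 without it a median of -0.01, from -0.32 to 0.28. Of those without ACGTG, Uap1, Pdk1, Arnt, Eno1, Gapdh, Ldhb, Hk1, Pfkl and Pfkp held GCGTG in a window. The split therefore does not compare genes with and without a core. Below are the 250 bases before the start, 5′ to 3′ on the strand of the gene, for the 4 members with an unadjusted p under 0.05 (Uap1, chr1:170174965-170175214, minus strand, Pygl, chr12:70227684-70227933, minus strand, Hk2, chr6:82774455-82774704, minus strand, and Pfkl, chr10:78009808-78010057, minus strand). Ldha (chr7:46845554-46845803, plus strand, the more upstream of 2 windows) and Bnip3 (chr7:138909507-138909756, minus strand) are shown beside them because each window holds 5 matches. The Ldha start is that of RefSeq, and the bases after it were found in no GENCODE transcript, unlike those of the other 5 windows. Capitals mark the matches, with CACGT and CACGC being the cores read on the other strand.
Uap1: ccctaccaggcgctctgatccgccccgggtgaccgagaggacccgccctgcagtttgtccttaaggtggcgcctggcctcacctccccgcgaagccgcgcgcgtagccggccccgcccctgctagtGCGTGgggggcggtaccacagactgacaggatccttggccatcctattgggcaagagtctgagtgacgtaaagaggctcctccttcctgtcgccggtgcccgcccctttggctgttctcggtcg
Pygl: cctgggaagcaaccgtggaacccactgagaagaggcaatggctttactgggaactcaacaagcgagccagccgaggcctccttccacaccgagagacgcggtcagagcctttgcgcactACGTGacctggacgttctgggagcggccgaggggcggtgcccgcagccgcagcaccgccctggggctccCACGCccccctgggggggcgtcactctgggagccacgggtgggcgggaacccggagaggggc
Hk2: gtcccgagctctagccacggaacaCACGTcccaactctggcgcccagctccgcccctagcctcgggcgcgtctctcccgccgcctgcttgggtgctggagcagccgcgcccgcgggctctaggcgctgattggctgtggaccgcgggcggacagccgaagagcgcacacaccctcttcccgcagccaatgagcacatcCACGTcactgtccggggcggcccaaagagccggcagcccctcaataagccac
Pfkl: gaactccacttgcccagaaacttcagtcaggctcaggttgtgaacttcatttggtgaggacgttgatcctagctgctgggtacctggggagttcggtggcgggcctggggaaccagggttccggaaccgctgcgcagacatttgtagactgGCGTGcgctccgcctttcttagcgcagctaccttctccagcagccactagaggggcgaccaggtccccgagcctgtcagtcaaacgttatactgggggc
Ldha: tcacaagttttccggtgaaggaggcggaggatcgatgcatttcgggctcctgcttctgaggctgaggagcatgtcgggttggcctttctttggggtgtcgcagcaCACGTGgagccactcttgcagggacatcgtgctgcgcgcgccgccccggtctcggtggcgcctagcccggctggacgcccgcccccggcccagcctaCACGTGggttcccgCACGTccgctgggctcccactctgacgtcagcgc
Bnip3: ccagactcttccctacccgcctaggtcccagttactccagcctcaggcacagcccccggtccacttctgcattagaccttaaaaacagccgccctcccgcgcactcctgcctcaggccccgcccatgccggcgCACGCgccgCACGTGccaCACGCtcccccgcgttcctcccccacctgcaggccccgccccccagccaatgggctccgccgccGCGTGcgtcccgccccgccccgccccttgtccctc
In these stretches Uap1 held 1 match, which began 124 bases before the start, Pygl 2 (131 and 62 bases before it), Hk2 2 (226 and 52 bases before it) and Pfkl 1 (99 bases before it). In Ldha, 4 of the 5 matches were the 2 strands of 2 CACGTG sites. In Bnip3, the matches that began 108 and 107 bases before the start were the 2 strands of 1 CACGTG site. A match is a run of letters and not a measured binding site. The match-rich genes Ldha and Bnip3 had log2 differences of 0.05 (SE 0.06) and 0.08 (SE 0.12), and each interval included 0.

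Glucose uptake was represented by Slc2a1 (GLUT1), the widespread basal transporter, and Slc2a3 (GLUT3), a high-affinity form. Slc2a1 was at 17.7, 16.04, 12.0 and 14.4 FPKM in WT replicates 1 to 4 and at 20.9, 11.8, 14.5 and 12.3 FPKM in cKO replicates 1 to 4. The groups overlapped across their range, with the highest value in cKO replicate 1, the library with the most epithelial transcript. The log2 difference of Slc2a1 was -0.03 (SE 0.17, limma adjusted p = 0.994), and it was -0.20 without cKO replicate 1. Slc2a3 was low, at 1.41 to 2.19 FPKM in WT and 1.41 to 2.57 in cKO (log2 difference -0.01, SE 0.15). It made up 8.95% to 15.5% of the summed FPKM of the 2 transporters in the 8 libraries.

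Hexokinases trap glucose in the cell by phosphorylation, and Hk1 is the constitutive and Hk2 the inducible form. Hk1 (chromosome 10, 62268855 to 62379908) differed little, at 22.5 ± 1.29 FPKM in WT and 23.2 ± 1.22 in cKO (SD, n = 4 each). Hk2 (chromosome 6, 82725025 to 82774454) was at 26.9, 29.9, 23.3 and 23.4 FPKM in WT replicates 1 to 4 and at 26.4, 16.5, 20.8 and 16.1 FPKM in cKO replicates 1 to 4. In 3 of the 4 cKO libraries Hk2 lay below every WT library, and cKO replicate 1 lay within the WT range. The Hk2 means were 25.9 ± 3.16 and 19.97 ± 4.78 FPKM, with a log2 difference of -0.38 (SE 0.15, 95% interval -0.71 to -0.05, limma adjusted p = 0.897). Leaving out any 1 library gave -0.52 to -0.29. The value of -0.52 was that without cKO replicate 1, with a limma adjusted p of 0.385. Hk2 took 49.5% to 56.7% of the summed FPKM of Hk1 and Hk2 in WT and 42.3% to 52.2% in cKO, so that Hk1 was the more abundant form in 3 of the 4 cKO libraries and in 1 of the 4 WT libraries.

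Phosphofructokinase makes the committed step of glycolysis, and its subunits come from 3 genes. The platelet-type Pfkp was the main one, with 70.7% to 75.2% of their summed FPKM in WT and 67.8% to 70.8% in cKO. Its level was steady in WT, at 36.9 to 37.9 FPKM, and 33.1 to 37.8 FPKM in cKO (log2 difference -0.06, SE 0.05). The muscle-type Pfkm was at 7.71 to 10.2 FPKM in WT and 8.90 to 9.64 in cKO. The liver-type Pfkl (chromosome 10, 77986947 to 78010083) was at 4.60, 6.26, 5.17 and 5.07 FPKM in WT replicates 1 to 4 and at 7.60, 5.69, 6.40 and 6.67 FPKM in cKO replicates 1 to 4. In 3 cKO libraries Pfkl lay above every WT library, and cKO replicate 2 lay below WT replicate 2. The Pfkl difference was 0.28 (SE 0.10, 95% interval 0.04 to 0.51, limma adjusted p = 0.897), with means of 5.28 ± 0.702 and 6.59 ± 0.791 FPKM (SD, n = 4 each). Pfkfb3, which makes the sugar bisphosphate that activates phosphofructokinase, was at 5.19 to 6.81 FPKM in WT and 4.81 to 6.63 in cKO (log2 difference -0.11, SE 0.11).

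The remaining enzymes of the chain, most of them abundant, differed little between the groups. Gapdh, the dehydrogenase in the middle of the chain, was at 345, 368, 348 and 356 FPKM in WT replicates 1 to 4 and at 405, 342, 365 and 356 FPKM in cKO replicates 1 to 4. WT values lay inside the cKO range, and cKO replicate 1 was the highest. The log2 difference of Gapdh was 0.05 (SE 0.06), with an interval from 0.945-fold to 1.13-fold. Aldoa, the main aldolase, was at 323 to 367 FPKM in WT and 324 to 358 in cKO (log2 difference -0.01, SE 0.06). The brain-type aldolase Aldoc was the member under the minimum mean level and was not tested. It was listed at 0 in WT replicates 2 and 3 and cKO replicate 3, and reached at most 0.412 FPKM, in cKO replicate 4. Gpi1, the isomerase after hexokinase, was at 54.0 to 63.1 FPKM in WT and 51.6 to 58.9 in cKO. The triose isomerase Tpi1 spread from 114 to 120 FPKM in WT and from 102 to 138 in cKO, again with cKO replicate 1 highest and cKO replicate 2 lowest. Pgk1 and Pgam1, the kinase and mutase of the phosphoglycerate steps, were at 43.9 to 50.1 and 83.8 to 88.3 FPKM in WT and at 39.7 to 51.4 and 82.8 to 90.6 in cKO. Enolase 1 (Eno1) was at 103 to 124 FPKM in WT and 99.5 to 127 in cKO, and pyruvate kinase Pkm at 151 to 169 and 154 to 170. None of these 8 tested genes had an interval that left 0, and their log2 differences ran from -0.06 (Gpi1) to 0.05 (Gapdh). Over the 14 tested glycolytic enzymes the median log2 difference was -0.01, with 8 lower and 6 higher in the mean. Of the 36 members 10 (Gpi1, Tpi1, Gapdh, Pgk1, Pgam1, Eno1, Pkm, Ldha, Ldhb and Bnip3) have near-identical transcripts at other loci of the annotation, and their values are uncertain because fragments can be shared.

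The wider glycolysis and gluconeogenesis list held 22 more genes, of which 10 were tested, 5 lower and 5 higher in the mean. The median was 0.04 on the log2 scale, 0 passed over all genes in limma and 0 had an unadjusted p under 0.05. The 3 with the smallest p were the mitochondrial carboxykinase gene Pck2 at 8.96 ± 0.579 FPKM in WT and 7.92 ± 0.930 in cKO, the ADP-dependent glucokinase gene Adpgk at 13.1 ± 1.32 and 11.7 ± 0.969, and Pfkfb4 at 5.45 ± 0.547 and 6.10 ± 0.422 (SD, n = 4 each).

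Lactate dehydrogenase was almost wholly of the A type at the transcript level. Ldha was at 317, 316, 294 and 293 FPKM in WT replicates 1 to 4 and at 347, 296, 301 and 320 FPKM in cKO replicates 1 to 4, and the groups overlapped (log2 difference 0.05, SE 0.06). Ldhb, whose subunit favours lactate oxidation, was at 14.3 to 16.2 FPKM in WT and at 12.0, 12.8, 16.7 and 17.0 FPKM in cKO replicates 1 to 4. The 2 low values of Ldhb were in the 2 cKO libraries with the highest epithelial sums. Ldhb made up 4.32% to 5.23% of the summed FPKM of Ldha and Ldhb in WT and 3.34% to 5.25% in cKO. Its log2 difference was -0.07 (SE 0.11), and 0.07 with the epithelial level as a covariate.

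Lactate and pyruvate cross the membrane through monocarboxylate transporters, of which Slc16a3 (MCT4) is the typical exporter of glycolytic cells and Slc16a1 (MCT1) works in both directions. Slc16a3 (chromosome 11, 120948480 to 120960868) was at 4.61, 3.75, 4.14 and 3.58 FPKM in WT replicates 1 to 4 and at 8.46, 3.75, 4.31 and 5.67 FPKM in cKO replicates 1 to 4. The values of cKO replicates 1 and 4 lay above all WT libraries, and those of cKO replicates 2 and 3 lay within the WT range. The log2 difference of Slc16a3 was the highest of the members at 0.34 (SE 0.19, limma adjusted p = 0.897), and it was 0.14 without cKO replicate 1. The part of the epithelial transcripts of that library in the Slc16a3 value was not tested beyond the covariate fit, which gave 0.23. Slc16a1 was at 11.2 to 13.1 FPKM in WT and at 13.1, 10.2, 10.5 and 9.82 FPKM in cKO replicates 1 to 4, with 3 cKO libraries under the WT range (log2 difference -0.15, SE 0.09). Slc16a3 thereby took 22.7% to 27.0% of the summed FPKM of the 2 transporters in WT and 39.2%, 26.8%, 29.2% and 36.6% in cKO replicates 1 to 4. The ranges touch at their ends, between WT replicate 3 at 27.0% and cKO replicate 2 at 26.8%. Pdk1, which shuts pyruvate dehydrogenase, was low at 2.04 ± 0.328 FPKM in WT and 2.17 ± 0.375 in cKO.

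Of the 15 further genes of pyruvate entry and lactate export, 14 were tested, 11 of them lower in the mean (52.6% of all genes were). Their median was -0.03, with 0 passing over all genes in limma. At an unadjusted p under 0.05, 1 was lower and 1 higher (3.03% and 2.37% of all genes were). Pdhb, the beta subunit of pyruvate dehydrogenase, was at 55.7 to 61.2 FPKM in WT and 52.1 to 55.6 in cKO, without overlap (log2 difference -0.11, SE 0.05). Pdp1, the phosphatase that switches pyruvate dehydrogenase on, was at 5.99 to 7.36 FPKM in WT and 6.58 to 9.50 in cKO (log2 difference 0.26, SE 0.11). Pdhx, a structural subunit, was at 6.54 ± 1.03 and 5.40 ± 0.664 FPKM (SD, n = 4 each).

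**Figure D3:**
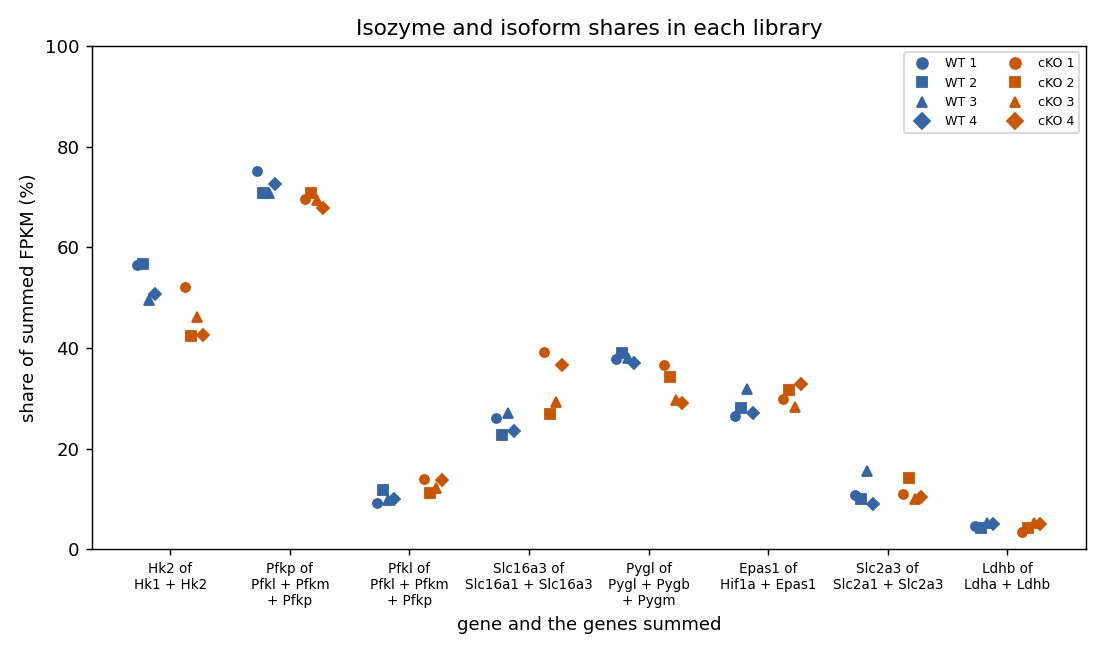
Share of a gene in the summed FPKM of the genes written under it, in percent, for each of the 8 libraries, with WT in blue and cKO in orange. The Pygl share of 3 phosphorylase genes lies at 37.0% to 38.9% in WT and 29.2% to 36.6% in cKO, while Hk2, Pfkp, Pfkl and Slc16a3 shares overlap at the edge of their ranges.

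The HIF subunits themselves were measured at close levels in the 2 groups. HIF activity is set mainly at the protein level, so that these transcripts are no measure of it. Hif1a was at 25.6, 25.2, 21.3 and 23.8 FPKM in WT replicates 1 to 4 and at 25.4, 18.5, 25.7 and 24.9 FPKM in cKO replicates 1 to 4. Only cKO replicate 2 stood apart, below all others (log2 difference -0.03, SE 0.11). Epas1, which encodes HIF-2 alpha, was at 8.85 to 9.96 FPKM in WT and 8.56 to 12.2 in cKO (log2 difference 0.12, SE 0.10). It made up 26.5% to 31.8% of the summed FPKM of Hif1a and Epas1 in WT and 28.3% to 32.9% in cKO. The partner subunit Arnt was steady, at 26.4 to 27.3 FPKM in WT and at 22.4, 26.9, 26.2 and 25.9 FPKM in cKO replicates 1 to 4, the lowest being cKO replicate 1. Of the prolyl hydroxylase genes, Egln2, which is no member and was named after its values were seen, was at 25.3 ± 2.86 FPKM in WT and 26.1 ± 1.96 in cKO (SD, n = 4 each), and the 2 members were lower in level. Egln1, the main oxygen sensor, was at 3.16 ± 0.560 FPKM in WT and 3.38 ± 0.738 in cKO, and Egln3, itself inducible by hypoxia, at 3.22 ± 0.203 and 3.25 ± 0.361 (SD, n = 4 each). All 5 members of this group had intervals within 0.5 log2 units of 0. Of the 11 other HIF regulators, 9 were tested, 7 lower in the mean, with a median of -0.05, 0 calls over all genes in limma and 0 at an unadjusted p under 0.05. Among those with the smallest p were subunits of the VHL ubiquitin ligase, Tceb1 at 75.0 ± 3.09 FPKM in WT and 70.9 ± 3.01 in cKO, and Rbx1 at 65.6 ± 1.65 and 63.6 ± 1.76 (SD, n = 4 each).

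The 4 hypoxia-inducible members had mean differences in both directions, 3 lower and 1 higher, and limma called 0. Bnip3, a mitophagy receptor, was at 34.8, 29.7, 41.5 and 29.4 FPKM in WT replicates 1 to 4 and at 30.2, 38.4, 36.9 and 36.8 FPKM in cKO replicates 1 to 4. Its WT values spanned those of all cKO libraries (log2 difference 0.08, SE 0.12). Ankrd37, an ankyrin-repeat gene known as a HIF target, was at 7.12, 5.08, 5.90 and 6.04 FPKM in WT replicates 1 to 4 and at 2.42, 8.19, 5.58 and 4.66 FPKM in cKO replicates 1 to 4. The cKO libraries thus held the lowest and the highest Ankrd37 value of all 8, and its residual SD of 0.44 on the log2 scale was the highest of the members (median 0.14 over the tested members and 0.13 over all tested genes). Its log2 difference of -0.26 (SE 0.25, limma adjusted p = 0.938) was -6.69e-05 without cKO replicate 1. Ddit4, an inhibitor of the mTORC1 kinase that hypoxia and other stresses induce, was at 4.39, 3.79, 3.87 and 3.57 FPKM in WT replicates 1 to 4 and at 2.96, 3.74, 2.07 and 3.65 FPKM in cKO replicates 1 to 4. The cKO replicates 1 and 3 lay below the WT range, and the log2 difference of Ddit4 was -0.28 (SE 0.14, limma adjusted p = 0.897), or -0.14 without cKO replicate 3. Ndrg1, a stress-responsive gene, was at 45.7 to 58.5 FPKM in WT and 41.5 to 53.5 in cKO (log2 difference -0.11, SE 0.09). Ndrg1 and Bnip3, at 49.2 and 34.7 FPKM over all libraries, were the abundant members of this group, against 5.62 for Ankrd37 and 3.51 for Ddit4.

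A wider list of 20 hypoxia-inducible genes had 18 tested members, 13 of them lower in the mean (52.6% of all genes were). Their median was -0.04, with 0 calls over all genes in limma (0 at an unadjusted p under 0.05). The collagen prolyl hydroxylase gene P4ha1 was at 61.9 ± 2.52 FPKM in WT and 57.9 ± 2.96 in cKO, the histone demethylase gene Kdm3a at 16.6 ± 1.53 and 15.2 ± 1.22, and the angiogenic factor Vegfa at 32.9 ± 2.92 and 30.6 ± 4.70 (SD, n = 4 each). The 12 immediate-early and heat-shock genes that tissue dissociation induces summed to 13494 to 13910 FPKM in WT and 13530 to 14403 in cKO.

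Glycogen phosphorylase releases glucose units from stored glycogen, and the liver-type gene Pygl and the brain-type gene Pygb were transcribed at similar levels in these cells. Pygl (chromosome 12, 70190811 to 70231488, minus strand) was at 18.8, 19.4, 18.9 and 20.4 FPKM in WT replicates 1 to 4 and at 17.3, 15.8, 15.6 and 14.4 FPKM in cKO replicates 1 to 4. All cKO libraries lay below all WT libraries. The means were 19.4 ± 0.748 and 15.8 ± 1.20 FPKM (SD, n = 4 each), 18.5% lower in cKO. The log2 difference was -0.28 (SE 0.06, 95% interval -0.43 to -0.14). This did not pass over all genes (limma unadjusted p = 0.00160, rank 20 of 11506, adjusted p = 0.897, and 0.316 to 1.00 over the alternatives). Leaving out any 1 library gave -0.32 to -0.24. Pygb was at 20.3 to 23.9 FPKM in WT and 21.1 to 24.1 in cKO (log2 difference 0.04, SE 0.07). The muscle-type gene Pygm, named after its values were seen, was at 9.51 to 10.9 FPKM in WT. In cKO replicates 1 to 4 Pygm was at 8.32, 8.35, 13.0 and 13.9 FPKM. Of the summed FPKM of these 3 genes, Pygl made up 37.7%, 38.9%, 38.0% and 37.0% in WT replicates 1 to 4, against 36.6%, 34.3%, 29.6% and 29.2% in those of cKO. These shares did not overlap, and the nearest were WT replicate 4 and cKO replicate 1. They reuse the Pygl values given above and also move with Pygm. Of Pygl and Pygb alone, Pygl made up 46.1% to 48.2% in WT and 39.3% to 44.4% in cKO.

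The synthase and branching enzyme genes Gys1 and Gbe1 were lower in level than Pygl and Pygb. Glycogen synthase Gys1 was at 2.90 ± 0.579 FPKM in WT and 2.86 ± 0.402 in cKO, and the branching enzyme Gbe1 at 6.75 ± 0.901 and 6.83 ± 0.928 (SD, n = 4 each). Their log2 differences were -0.01 (SE 0.13) and 0.02 (SE 0.11). Of 21 other glycogen genes 17 were tested, 8 lower and 9 higher in the mean, with a median of 0.02, 0 calls over all genes in limma and 0 at an unadjusted p under 0.05. The phosphorylase kinase subunits Phkb and Phka1 were at 8.63 ± 0.166 and 7.67 ± 0.710 FPKM, and at 4.98 ± 0.547 and 4.32 ± 0.738. Ugp2, which makes UDP-glucose, was at 137 ± 4.00 and 129 ± 9.13.

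Uap1 makes UDP-N-acetylglucosamine, the sugar donor for hyaluronan, heparan sulfate and N-linked glycans, and its transcript was among the most abundant of the 36. At 211 FPKM over all libraries it followed Gapdh (361), Aldoa (344) and Ldha (311), and it stood at percentile 96.7 of the tested genes. Uap1 (chromosome 1, 170141938 to 170174957, minus strand) was at 240.2, 259, 221 and 217 FPKM in WT replicates 1 to 4 and at 203, 181, 200.3 and 169 FPKM in cKO replicates 1 to 4. All cKO libraries lay below all WT libraries. The means were 234 ± 19.4 and 188 ± 16.1 FPKM (SD, n = 4 each), 19.7% lower in cKO. The log2 difference was -0.32 (SE 0.08, 95% interval -0.49 to -0.14). Uap1 did not pass over all genes (limma unadjusted p = 0.00225, rank 26 of 11506, adjusted p = 0.897, and 0.392 to 1.00 over the alternatives). Leaving out any 1 library gave -0.35 to -0.27. Over the other alternatives the Uap1 difference ran from -0.36, with the epithelial level as a covariate, to -0.27, under quantile normalization.

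The other hexosamine genes are given beside Uap1, of which Gfpt1, Pgm3 and Uap1l1 were chosen after their values were seen. Gfpt2, an amidotransferase of the entry step, was the most abundant at 1132, 1280, 997 and 1075 FPKM in WT replicates 1 to 4 and at 1033, 986, 974 and 880.3 FPKM in cKO replicates 1 to 4. In 3 cKO libraries it lay below all WT libraries, and cKO replicate 1 lay above WT replicate 3. The log2 difference of Gfpt2 was -0.21 (SE 0.08, limma unadjusted p = 0.0295, adjusted p = 0.897). Its paralog Gfpt1 was far lower, at 7.70 ± 0.869 FPKM in WT and 8.18 ± 1.85 in cKO. The acetyltransferase Gnpnat1 was at 39.5 ± 1.85 and 36.7 ± 2.53 FPKM, the mutase Pgm3 at 10.2 ± 0.795 and 10.04 ± 0.785, and the recycling kinase Nagk at 35.9 ± 1.99 and 33.9 ± 4.18 (SD, n = 4 each). Uap1l1, a relative of Uap1, was at 26.6 ± 3.74 and 28.3 ± 3.01 FPKM. Of the 7 genes of this list with values, all tested, 5 were lower in the mean (52.6% of all genes were), and the median was -0.03. Of these 7, limma called 0 over all genes, and 1 was lower at an unadjusted p under 0.05 (3.03% of all genes were).

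**Figure D4:**
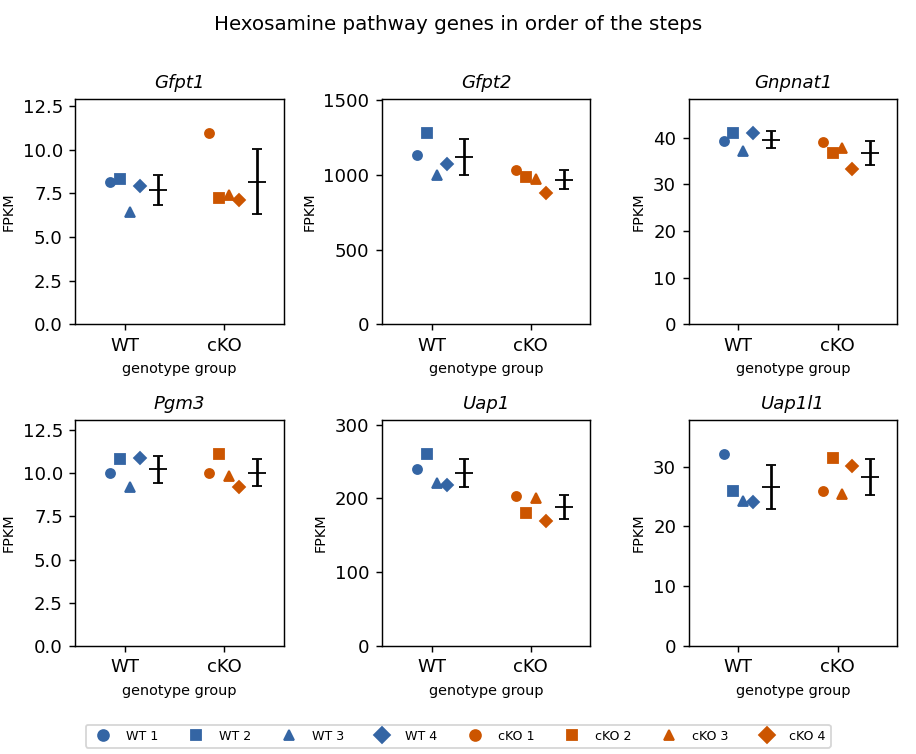
FPKM of 6 hexosamine pathway genes in each library, with WT in blue, cKO in orange and black bars for the mean and SD of 4 libraries on linear axes from 0. Uap1 separates the groups, at 217 to 259 FPKM in WT and 169 to 203 in cKO, while the others overlap.

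The libraries differed from each other in these genes in ways that the groups did not share. For 12 of the 35 tested members (34.3%) the highest value was in cKO replicate 1, which held the highest value of 17.5% and the lowest of 21.1% of all tested genes, and was the lowest for 3 members. The lowest value was in cKO replicate 4 for 9 members (25.7%) and in cKO replicate 2 for 8 (22.9%), against 13.6% and 13.2% of all genes. WT replicate 2, the library with the smallest relative depth, was the highest for 7 members and the lowest for 0, against 12.7% and 11.8% of all genes. The summed FPKM of the glycolytic enzymes was 1364, 1447, 1371 and 1373 in WT replicates 1 to 4, against 1504, 1304, 1422 and 1341 in those of cKO. The cKO range thus took in the whole WT range. The leukocyte markers (10 of 10 detected in all libraries) summed to 103 to 161 FPKM in WT and to 295 FPKM in cKO replicate 1, against 95.7 to 139 FPKM in the other cKO libraries. Smooth muscle markers summed to 49.97 to 57.8 FPKM in WT and 42.0 to 84.3 in cKO, and endothelial markers to 3.02 to 5.01 and 4.56 to 10.8. Among tested markers, the mean was higher in cKO for 12 of 12 epithelial, 6 of 6 smooth muscle, 2 of 2 endothelial and 5 of 9 leukocyte genes. The part of these other cells in the high values of cKO replicate 1, or in differences between the groups, was not tested beyond the epithelial covariate.

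**Figure D5:**
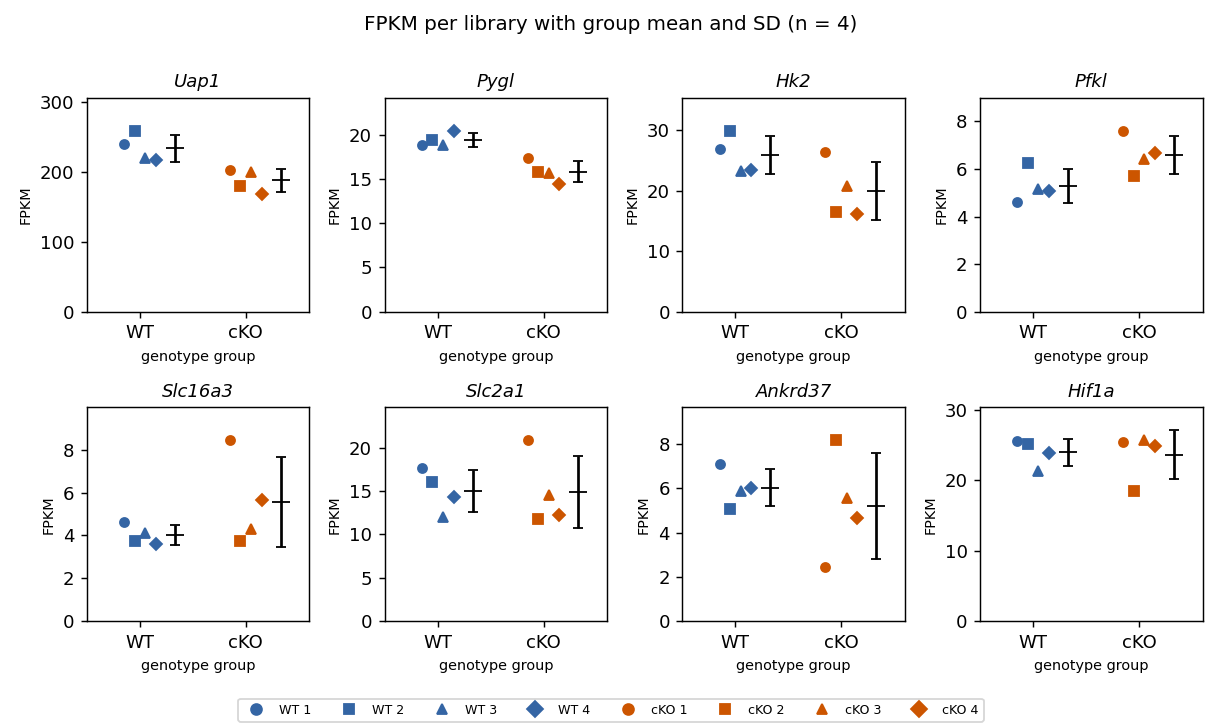
FPKM of 8 members in each library, with WT in blue, cKO in orange and black bars for the mean and SD of 4 libraries on linear axes from 0. Uap1 and Pygl separate the groups, whereas cKO replicate 1 is the highest cKO library for Hk2, Pfkl, Slc16a3 and Slc2a1 and the lowest for Ankrd37, and cKO replicate 2 is the lowest for Hif1a.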

How the data were processed

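RNA-seq of sorted stromal cells from 8 mice (4 WT, 4 cKO, grouped and numbered by sample title) used SMART-Seq HT cDNA and Nextera XT libraries, per the labels' protocols. The authors deposited 1 table of FPKM values per library. Per the submitters' processing notes, Cufflinks 2.2.1, Cuffdiff, SAMtools 0.1.18, Bowtie2 2.3.5.1 and TopHat2 2.1.1 were used with mm10. The gene annotation, the settings and whether values were scaled further: not given in the sources used here.

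Since FPKM is relative, genes taking a larger share of a library lower all others. Counts were not analysed here. Relative depth came from low values, where 48.0% to 56.4% of ratios to WT replicate 1 fitted steps of whole fragments (within 0.002 log2 units). The total in WT replicate 1 is a median over 22 long single-transcript genes (1.75e+07 fragments, quartiles 1.22e+07 and 1.77e+07).

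Values were transformed to log2(FPKM + 1), which understates the change of low genes. The 11506 genes averaging 1 FPKM or more were tested in limma 3.58.1 (R 4.3.3, eBayes with trend, Benjamini-Hochberg over all genes, threshold 0.05). The procedure was run on simulated data with shifts larger than any member difference. That run does not measure its power at differences as small as those of the members. Members and lists were chosen with earlier results of these data known. All members are named, and of each other list up to 3 genes with the smallest p. The values of 1 such gene are not reported here. Pgk1, Ldha and others were marked uncertain from blastn 2.17.0 matches (at least 95% identity over 200 bases) to GENCODE transcripts of other loci. Gene positions are from GENCODE M21 (GRCm38, the build of mm10), and promoters from RefSeq (GRCm38.p6). Marker lists covered stroma, epithelium, leukocytes, endothelium, smooth muscle, glia, interstitial cells of Cajal, mesothelium and tissue dissociation. The summed FPKM of glia was 0.659 to 1.56 in WT and 1.51 to 2.28 in cKO, of interstitial cells 2.51 to 2.99 and 1.79 to 4.44, of mesothelium 0.448 to 1.89 and 0.445 to 4.16, and of stroma 18868 to 19845 and 17218 to 21052. The alternatives tried were pseudocounts of 0.1 and 0.25, no filter or a minimum of 5, 3 scalings, 2 eBayes settings, array weights, an epithelial covariate, a replicate block and each library left out. The design text counts 4 mice a group. Plots used matplotlib 3.10.9.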

Additional observations from a re-analysis of the deposited data

Results flagged for a closer look

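Among the 72 sets of 4 libraries examined (36 genes in 2 groups), 2 held a library far from the other 3, by the gap to its neighbour over the range of the group. Chance alone would mark about 1 in 20 such sets. Pdk1 was at 2.53 FPKM in WT replicate 1, against 1.85 to 1.92 in the other WT libraries. Hif1a was at 18.5 FPKM in cKO replicate 2, against 24.9 to 25.7 in the other cKO libraries.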

How the results depend on the processing

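Over the 20 alternatives, limma called 0 members in each, and the median log2 difference of the tested members ran from -0.03 to 0.02, or -0.03 to 0.04 with a library left out. Of the 35 tested members, 20 kept their direction throughout, among them Uap1, Pygl, Hk2, Pfkl and Slc16a3. The other 15 had small differences that turned sign under some alternative, and the cause was not tested. Under quantile normalization these were Aldoa (0.038), Tpi1 (0.022), Pgk1 (0.0085), Egln3 (-0.038) and Gbe1 (-0.00017). With libraries rescaled to the same sum they were Slc2a3 (0.010), Aldoa (0.024), Tpi1 (0.030), Pgk1 (0.020), Eno1 (0.0031), Hif1a (0.0049) and Gys1 (0.014), and with the epithelial covariate Ldhb (0.069) and Pdk1 (-0.024). Leaving out each library in turn gave -0.20 to 0.057 for Slc2a1, -0.12 to 0.068 for Slc2a3, -0.035 to 0.087 for Pfkm, -0.043 to 0.019 for Aldoa, -0.084 to 0.059 for Tpi1, -0.064 to 0.058 for Pgk1, -0.013 to 0.030 for Pgam1, -0.088 to 0.027 for Eno1, -0.14 to 0.016 for Ldhb, -0.0014 to 0.13 for Pdk1, -0.082 to 0.080 for Hif1a, -0.023 to 0.18 for Egln1, -0.035 to 0.050 for Egln3, -0.10 to 0.076 for Gys1 and -0.059 to 0.076 for Gbe1. The count of genes called among all tested was 1 to 4 with a library left out, reaching 4 when cKO replicate 1 was left out, 3 for WT replicate 3 and 2 for cKO replicate 2.

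With the replicate number as a block, limma called 1 gene and 0 members, and the median of the members was -0.01. Same-numbered libraries did not deviate together (correlations 0.0912, 0.0336, 0.0190 and 0.0182), and no WT library correlated best with the cKO library of its own number. Total depth was estimated only for WT replicate 1, from 22 genes, and the depths of the other libraries are relative to it. No counting interval is given. The differences of the low members Slc2a3, Pdk1, Gys1, Egln1 and Egln3 are understated by the pseudocount. So are larger ones. With a pseudocount of 0.1 in place of 1, Ddit4 went from -0.28 to -0.35 and Ankrd37 from -0.26 to -0.32. Slc16a3 went from 0.34 to 0.39 and Pfkl from 0.28 to 0.32.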
